A study of Mus musculus and Homo sapiens with 22 samples.

Results

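PROX1 peaks were examined at 10 genes of the Notch pathway, namely the receptors Notch1, Notch2 and Notch3, the ligands Jag1, Jag2 and Dll1, the DNA-binding factor Rbpj and the targets Hes1, Hey1 and Heyl. A peak was counted for a gene when its summit, the position of its highest significance, lay in the gene body or within 50 kb of either end. By this rule 183 of 105059 peaks belonged to these genes, of which 94 of 50159 came from liver, 70 of 40531 from MEFs and 19 of 14369 from Hep3B cells. The rule used position alone, so the rank, place and sequence of the peaks were free to vary.

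The study asked where PROX1, a homeobox transcription factor of hepatocytes, sits on DNA in the cells that normally make it and in cells forced to make it. CUT&RUN, in which an antibody tethers a nuclease that cuts out the DNA around a bound protein, was applied to 22 samples in 6 groups. For liver, 5 samples with a PROX1 antibody and 5 with IgG came from untreated wild-type C57BL/6J mice aged 2 to 3 months. Nuclei were prepared from whole liver, and no step that separates hepatocytes from other liver cells is described. Mouse embryonic fibroblasts (MEFs) came from wild-type C57BL/6N embryos at E13.5, carried rtTA and tetO-FLAG-mmProx1 lentivirus, and received 2 µg/ml doxycycline for 2 days before 3 samples were taken with a FLAG antibody and 3 with IgG. Hep3B is an established human hepatocellular carcinoma line, here transduced with pLIX-Puro-hsPROX1, selected with puromycin and induced as the MEFs were (2 µg/ml, 2 days), and the FLAG antibody and IgG were used on 3 samples each. The liver list therefore describes endogenous PROX1 and the other lists describe an overexpressed factor, and since the cells, the antibody and the source of the factor all differ between liver and the rest, their effects cannot be told apart.

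In Notch signalling, a Jagged or Delta-like ligand on one cell engages a Notch receptor on its neighbour, and proteolysis releases the intracellular domain of the receptor. That domain joins RBPJ on DNA and switches on genes of the Hes and Hey families, which encode repressors, while RBPJ without it recruits corepressors. In liver the pathway is known for directing progenitors to the bile duct fate, and inherited loss of JAG1 or NOTCH2 leaves patients with too few bile ducts.

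Each group was represented by 1 list of consensus peaks made over its antibody samples, so no value has a replicate spread, no test between groups could be made, and the read depth behind a peak is unknown. Strength is given as the percentile of a summit's −log10 p within its own list, with 100 the strongest. Percentiles describe order within a list and are not compared as strengths, because the liver list starts at an area of 500 and a −log10 q of 4.03 whereas the MEF and Hep3B lists start at an area of 200 and a −log10 q of 1.16 and 1.22. As a check of the labels, 8 of 8 hepatocyte marker genes had a promoter summit in liver, 0 in MEFs and 3 in Hep3B. For fibroblast markers the counts were 1, 8 and 1 of 8, for cholangiocyte markers 2, 2 and 3 of 7, and for endothelial markers 1, 2 and 0 of 6. These are counts of binding and not of expression, and they do not measure how many nuclei of another cell type a sample held. Of all protein-coding genes, 28.3% had a promoter summit in the liver list, 56.5% in the MEF list and 45.2% in the Hep3B list. Only the hepatocyte count of liver and the fibroblast count of MEFs stood clearly above these shares. The hepatocyte count of Hep3B lay below its share, so the counts do not check the Hep3B label.

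At the Hes1 promoter the MEF and the Hep3B list both had a summit in a stretch that is nearly identical in mouse and human, and its sequence is shown here for that reason. Both stretches end just before an annotated start of transcription and run in the direction of the gene. Capitals mark 3 CCAAT boxes (CCAAT or its complement ATTGG) and each match to the RBPJ core TGGGAA. Only these exact letters were searched, so other forms of an RBPJ site are not marked. The mouse stretch (mm10, chr16:30065124-30065339, plus strand) surrounds the MEF summit at 30065224, and the human stretch (hg38, chr3:194135881-194136147, plus strand) surrounds the Hep3B summit at 194135981.
Hes1 (mouse): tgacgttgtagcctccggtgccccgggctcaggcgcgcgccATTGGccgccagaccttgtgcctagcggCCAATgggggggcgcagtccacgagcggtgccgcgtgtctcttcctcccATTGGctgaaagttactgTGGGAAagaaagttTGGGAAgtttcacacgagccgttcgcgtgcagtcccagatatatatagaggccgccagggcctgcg
HES1 (human): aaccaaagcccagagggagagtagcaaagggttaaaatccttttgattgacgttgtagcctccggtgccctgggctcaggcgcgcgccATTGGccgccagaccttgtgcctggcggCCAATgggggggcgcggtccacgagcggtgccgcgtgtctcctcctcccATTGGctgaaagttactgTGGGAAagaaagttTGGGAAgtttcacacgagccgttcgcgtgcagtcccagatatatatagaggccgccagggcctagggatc

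In a local alignment of the 301 bases around the MEF summit to the human sequence, 298 bases aligned at 97.0% identity, and the position matching the MEF summit lay 47 bp from the Hep3B summit. The centres of the mouse RBPJ cores were 38 and 52 bp from the MEF summit, and those of the human cores were 86 and 100 bp from the Hep3B summit. The MEF summit at Hey1, a related target gene, also had 2 matches to this core. They are shown as the 30 bases that hold both (mm10, chr3:8667012-8667041, minus strand, cores in capitals).
Hey1 (mouse): tccaTGGGAAggggcgcagcgTGGGAAagg

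PROX1 itself is known to bind a palindrome made of the half-site AAGNC followed directly by its reverse complement. The study selected its motif-bearing peaks with a motif matrix, which was not used here, so matches to these letters are not the study's motif sites. Among the strongest liver summits of Notch2 inside the gene, those at 98044818 and 98105117 held a match to this palindrome with 1 mismatch at the 8 fixed letters, shown in capitals within 201 bases of intron (mm10, chr3:98044718-98044918 and chr3:98105017-98105217, plus strand). The matches lay 58 and 74 bp from the respective summits. With up to 1 mismatch, a match within 201 bases was found at 4 of 94 liver summits of the Notch genes, or 4.26%. Among all liver summits the share was 5.24%, so matches at the Notch genes were not more frequent than in the whole list. The matches shown are therefore not evidence of direct PROX1 sites.
Notch2 intron, summit 98044818: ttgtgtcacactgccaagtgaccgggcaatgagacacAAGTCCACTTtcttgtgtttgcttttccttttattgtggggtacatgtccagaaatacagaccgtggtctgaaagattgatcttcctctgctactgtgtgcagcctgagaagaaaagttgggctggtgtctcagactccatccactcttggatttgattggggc
Notch2 intron, summit 98105117: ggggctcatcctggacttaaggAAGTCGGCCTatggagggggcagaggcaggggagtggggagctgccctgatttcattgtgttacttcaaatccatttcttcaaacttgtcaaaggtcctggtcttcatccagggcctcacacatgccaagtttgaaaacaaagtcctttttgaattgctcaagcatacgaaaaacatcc

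For each list, the promoter stretch of the gene whose summits reached the highest percentile is given next, to show how differently composed these were. For Notch1 that highest summit was not the promoter summit shown, which stood at percentile 47.6 in liver and 96.2 in MEFs. The liver summit of Notch1 (mm10, chr2:26461699-26461899, minus strand) lay in intron, 948 bp from a non-coding internal start. The MEF summit of Notch1 (mm10, chr2:26503823-26503987, minus strand) lay 63 bp upstream of an internal start. The Hep3B summit of JAG1 (hg38, chr20:10674000-10674112, minus strand) lay 13 bp upstream of the gene. None of these stretches held any of the 4 motifs searched, so no letters are in capitals.
Notch1 (liver): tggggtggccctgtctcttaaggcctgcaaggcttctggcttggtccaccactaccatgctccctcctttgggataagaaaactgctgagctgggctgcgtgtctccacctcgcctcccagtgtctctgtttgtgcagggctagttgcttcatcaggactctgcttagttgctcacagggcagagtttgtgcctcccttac
Notch1 (MEF): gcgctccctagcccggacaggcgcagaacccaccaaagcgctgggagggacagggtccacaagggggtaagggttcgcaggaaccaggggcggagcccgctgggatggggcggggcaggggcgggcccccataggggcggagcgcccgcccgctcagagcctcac
JAG1 (Hep3B): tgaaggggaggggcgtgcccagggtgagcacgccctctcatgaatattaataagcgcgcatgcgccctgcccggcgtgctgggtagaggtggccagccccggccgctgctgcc

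Across the 10 genes, the lists differed in which genes were covered and where. In liver 8 genes had at least 1 summit, in MEFs all 10, and in Hep3B 8, beside 69.2%, 81.3% and 71.9% of all protein-coding genes under the same rule. A summit inside the gene body was found at 6, 9 and 3 of the genes in liver, MEFs and Hep3B, beside 34.1%, 46.4% and 30.0% of protein-coding genes. A promoter summit, within 1 kb of an annotated start of the gene, was found at 4, 8 and 5 of them, beside 28.3%, 56.5% and 45.2%. These shares lay above their background in each list, except the gene-body share in Hep3B, which equalled it. In Hep3B the 8 genes with any summit and the 5 with a promoter summit lay close to 71.9% and 45.2%. Gene length was not matched. In mouse these genes ran from 3.41 kb (Hes1) to 191 kb (Rbpj), against a median of 17.4 kb for protein-coding genes. With 10 genes and 1 list per group none of these differences was tested. A Notch gene had a median of 4.50 liver, 8.00 MEF and 1.00 Hep3B summits, against 3.00, 4.00 and 1.00 for all protein-coding genes.

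**Figure D1:**
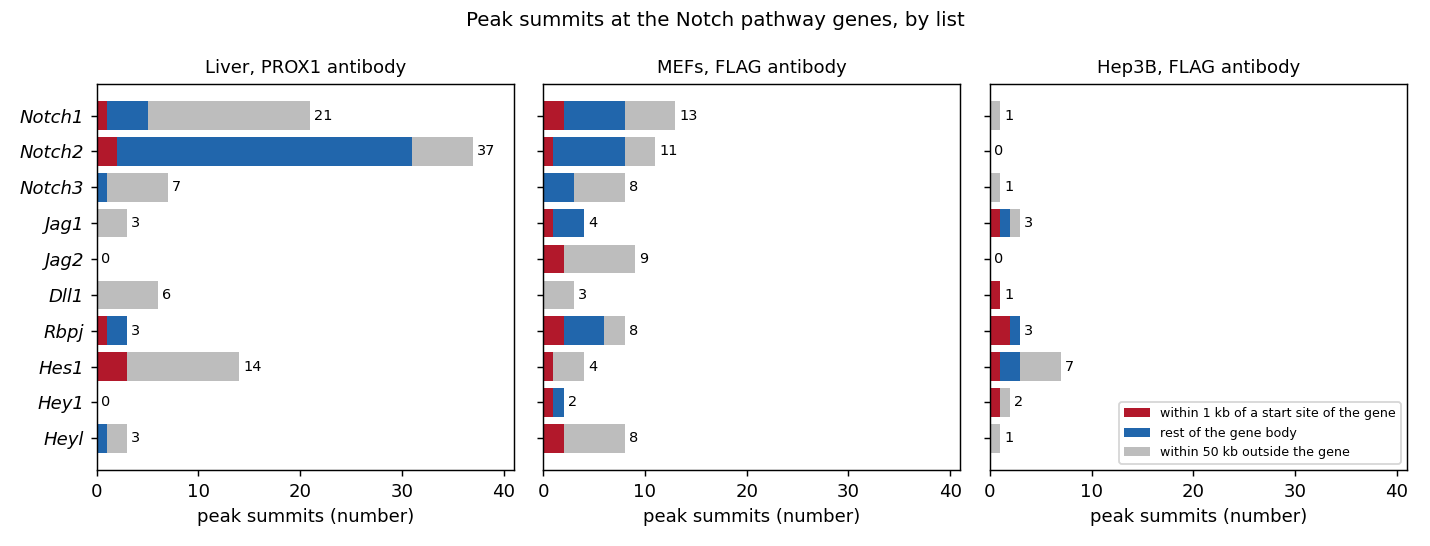
Number of peak summits (horizontal axis) at each of the 10 Notch genes (vertical axis, mouse names) in liver, MEFs and Hep3B, split into promoter, rest of the gene body and flank; each bar is 1 list with no replicates. Notch2 in liver stands out with 37 summits, most of them inside the gene, while Jag2 and Hey1 have 0 in liver and Jag2 and Notch2 have 0 in Hep3B.

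Receptors held most of the liver summits, with 65 of 94, whereas ligands held 9, Rbpj 3 and the targets 17. Of the receptor summits, 37 were at Notch2 and 21 at Notch1, and 16 of those at Notch1 lay outside the gene. The counts per role were not set against gene length. In MEFs the summits were divided as 32 at receptors, 16 at ligands, 8 at Rbpj and 14 at targets. In Hep3B the order turned, with 2 at receptors, 4 at ligands, 3 at RBPJ and 10 at targets. Both receptor summits there lay within 1 kb of the start of a neighbouring gene. Receptor genes had no promoter summit in Hep3B, and ligand genes had none in liver. Each of these roles had only 3 genes. Of all protein-coding genes, 45.2% had a promoter summit in Hep3B and 28.3% in liver.

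Notch2, the receptor linked to bile duct formation, carried the most summits of the 10 genes in liver. It had 37 there, 30 of them inside its 137 kb body and all 30 in introns. Only 75 of 21938 protein-coding genes had as many or more within the same rule, which placed Notch2 at percentile 99.7 by count. Since long genes collect more summits, the density was also compared, and at 15.6 summits per 100 kb of the searched region it stood at percentile 97.4.

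The intronic liver summits of Notch2 were grouped toward the start of the gene. Of the 30 summits in the body, 19 lay in the first 50 kb, 11 between 50 and 100 kb, and 0 beyond 100 kb, with the last one 95.6 kb from the start. Neighbouring summits in the body were a median of 1.74 kb apart. The strongest was at 98069243 in an intron, with a −log10 p of 21.5 at percentile 97.4, followed by 98083121 at percentile 96.9, the palindrome-bearing 98105117 and 98044818 at 95.1 each, and 98024676 at 94.4. In all, 7 of the 37 fell in the top 10% of the liver list, while the weakest stood at percentile 2.05.

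The liver summits at the Notch2 promoter were weaker than the strongest intronic ones, though not weaker than all of them. They lay at 98013510, 17 bp upstream of the annotated start with a −log10 p of 10.2 at percentile 26.4, and at 98014187 with a −log10 p of 10.7 at percentile 31.9. In MEFs the order was different, since the promoter summit at 98013649, 111 bp past an annotated start, stood at percentile 79.1 and only the intronic summit at 98067629 stood higher, at 84.8. MEFs had 11 summits at Notch2, of which 8 were in the body, and Hep3B had 0 at NOTCH2. Of the 37 liver peaks, 8 overlapped a MEF peak by at least 1 bp, beside 18.9% of the whole liver list. At the 2 strongest liver sites, 98069243 and 98083121, no MEF peak overlapped, as was the case for most liver peaks of the list.

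**Figure D2:**
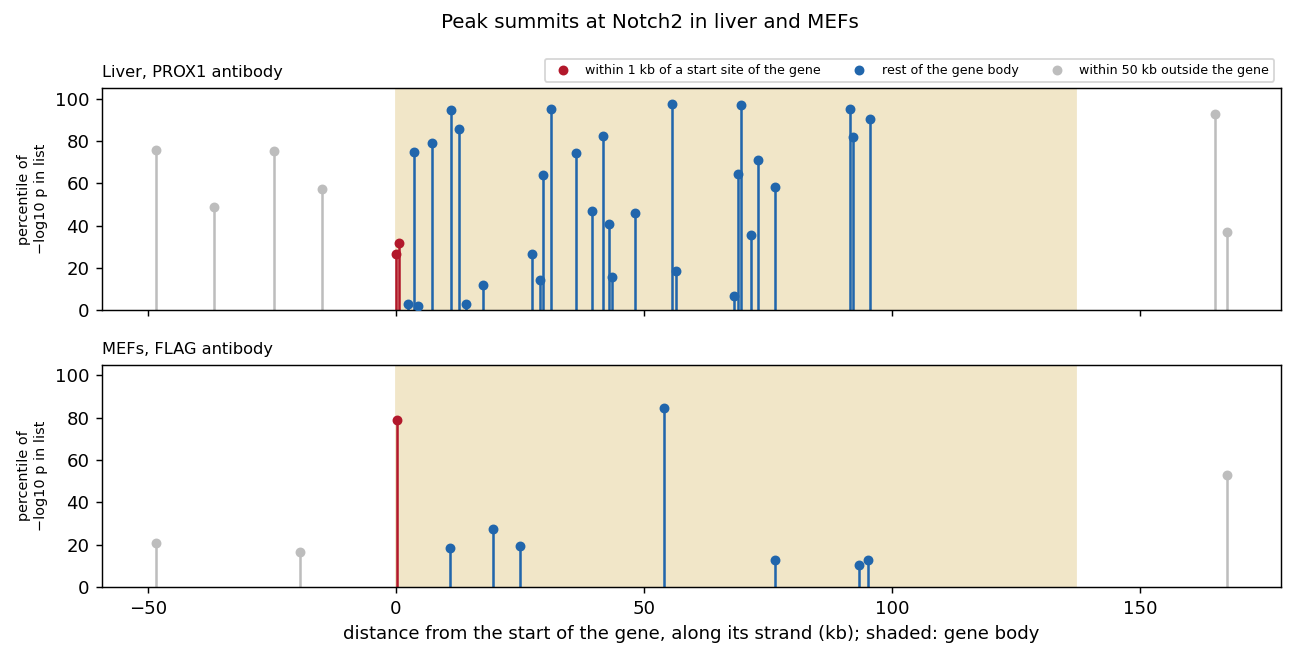
Position of each Notch2 summit along the gene (horizontal axis, kb from its start; shaded, gene body) against its percentile of −log10 p within the list (vertical axis), in liver and MEFs. The liver panel shows intronic summits up to 95.6 kb, at percentiles from 2.05 to 97.4, and promoter summits at 26.4 and 31.9. The MEF panel is led by the promoter summit at percentile 79.1 and 1 intronic summit at 84.8.

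Notch1, the receptor best known from vascular and blood cell fate decisions, had 21 summits in liver, 13 in MEFs and 1 in Hep3B. In liver 16 of the 21 were outside the gene, 12 of them downstream, where Sec16a and Inpp5e lie. The strongest liver summit, 26435247 at percentile 98.7, was 4508 bp from the nearest start of Sec16a, a gene for an endoplasmic reticulum exit-site protein, and 27500 bp from one of Notch1. The strongest MEF summit, 26445596 at percentile 99.5, was 380 bp from a Sec16a start, and the 1 Hep3B summit, 136483472 at percentile 87.3, was 287 bp from a SEC16A start. The top summit of the Notch1 region was therefore closer to Sec16a than to Notch1 in every list.

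Within Notch1 itself, the MEF list had a summit at 26503887 with a −log10 p of 9.02 at percentile 96.2, in a peak of 2385 bp around internal starts. The summit at the outermost start, 26516442, stood at percentile 33.6, and a further MEF summit at 26525891, 9228 bp upstream, at 91.4. In liver the sole promoter summit, 26461799 at percentile 47.6, was 948 bp from the start of a non-coding transcript, and when starts of protein-coding transcripts alone were used, 3 rather than 4 of the genes had a promoter summit in liver.

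Notch3, which is mainly a receptor of vascular smooth muscle, was the member without a promoter summit in any list. It had 7 liver, 8 MEF and 1 Hep3B summits. The strongest liver summit at 32099062, percentile 87.8, lay downstream of the gene, and the strongest MEF summit at 32143395, percentile 84.0, lay in a coding exon. The MEF summit nearest to a start was 1242 bp away, just outside the promoter limit. In Hep3B the summit at 15125656, percentile 34.6, was 3 bp from the start of the neighbour ILVBL and 40311 bp from that of NOTCH3.

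Among the ligands, Jag1 is the one best known from bile duct development. In Hep3B the summit at 10674012, 13 bp upstream of the gene, had a −log10 p of 8.83 and stood at percentile 96.8, the highest of the 19 Hep3B summits at these genes. The other JAG1 summits in Hep3B were at percentiles 10.6 and 12.3. In MEFs the promoter summit at 137117586, percentile 69.1, lay 942 bp upstream, in a peak of 2079 bp that also covered the start, and 3 further summits lay in introns. In liver the 3 summits were at percentiles 32.1, 34.4 and 51.7, and the nearest was 23631 bp from a Jag1 start. The MEF sequence aligned to the human JAG1 region at 81.0% identity over 295 bases, but its summit matched a position 897 bp from the Hep3B summit, so the summits lay at different places of a like promoter.

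Jag2 and Dll1, ligands with roles in limb, thymus and somite patterning, differed from list to list. Jag2 had 9 summits in MEFs and 0 in both liver and Hep3B. The MEF promoter summits of Jag2 were at 112929819, 43 bp upstream and at percentile 52.5, and at 112928420, 28 bp past a non-coding start and at percentile 11.5. The strongest MEF summit of Jag2, 112950586 at percentile 90.4, was 8462 bp from Nudt14 and 20810 bp from Jag2. DLL1 had 1 summit in Hep3B, 170306632, which lay 67 bp upstream of the gene at percentile 83.7. Dll1 had 6 summits in liver, the nearest 3866 bp from a start and the strongest, 15340523, at percentile 69.6. In MEFs it had 3, the nearest 2507 bp from a start and the strongest, 15356750, at percentile 78.1.

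Rbpj, the DNA-binding factor on which all Notch receptors converge, had a promoter summit in each of the 3 lists, and each lay at an internal start of the gene and not at its outermost one. In MEFs the summit at 53590339, 29 bp upstream of that start, had a −log10 p of 8.29 at percentile 91.6, and a second at 53589301 stood at 78.3. In liver the summit at 53590310 was 29 bp from the MEF summit, but with a −log10 p of 8.89 it stood at percentile 10.0 of its list. The strongest liver summit of Rbpj, 53656754 near the end of the gene, reached percentile 22.1. In Hep3B the summits at 26319745 and 26320650 stood at percentiles 89.6 and 45.3. The MEF summit at 53590339 aligned to human sequence at 88.3% identity over 300 bases and matched a position 18 bp from the Hep3B summit at 26320650. The MEF summit at 53589301 aligned at 83.9% over 279 bases and matched a position 136 bp from the Hep3B summit at 26319745. The pair of promoter peaks was thus present in the same order in mouse and human, although the percentiles within each pair ran in opposite orders.

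Hes1, a target and repressor that Notch induces in many tissues, had the highest promoter percentile of the 10 genes in MEFs, where it had 4 summits. The one at 30065224 had a −log10 p of 9.73 at percentile 98.5, and its peak of 5376 bp (chr16:30062336-30067711) was among the widest of the MEF list, in which 3 of 40531 peaks were as wide or wider, itself included. A second peak downstream of the gene, with its summit at 30070552 and percentile 95.4, was 3575 bp wide. In liver the same stretch held narrower, separate peaks, with promoter summits at 30065437, 30066227 and 30067117 at percentiles 45.9, 18.9 and 50.9, and 3 of the 11 remaining summits overlapped the downstream MEF peak.

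Liver had 14 summits at Hes1 in all, and the strongest, 30036437 at percentile 83.4, lay 27947 bp upstream of the nearest start. None of the 14 reached the top 10% of the liver list. Hep3B had 7 summits at HES1, a count reached or passed by 817 of 20033 protein-coding genes. The strongest, 194134954 at percentile 89.1, was 1194 bp upstream, the promoter summit at 194135981 in the printed sequence stood at 51.8, and a distant one at 194112782, 23366 bp upstream, stood at 83.6.

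**Figure D3:**
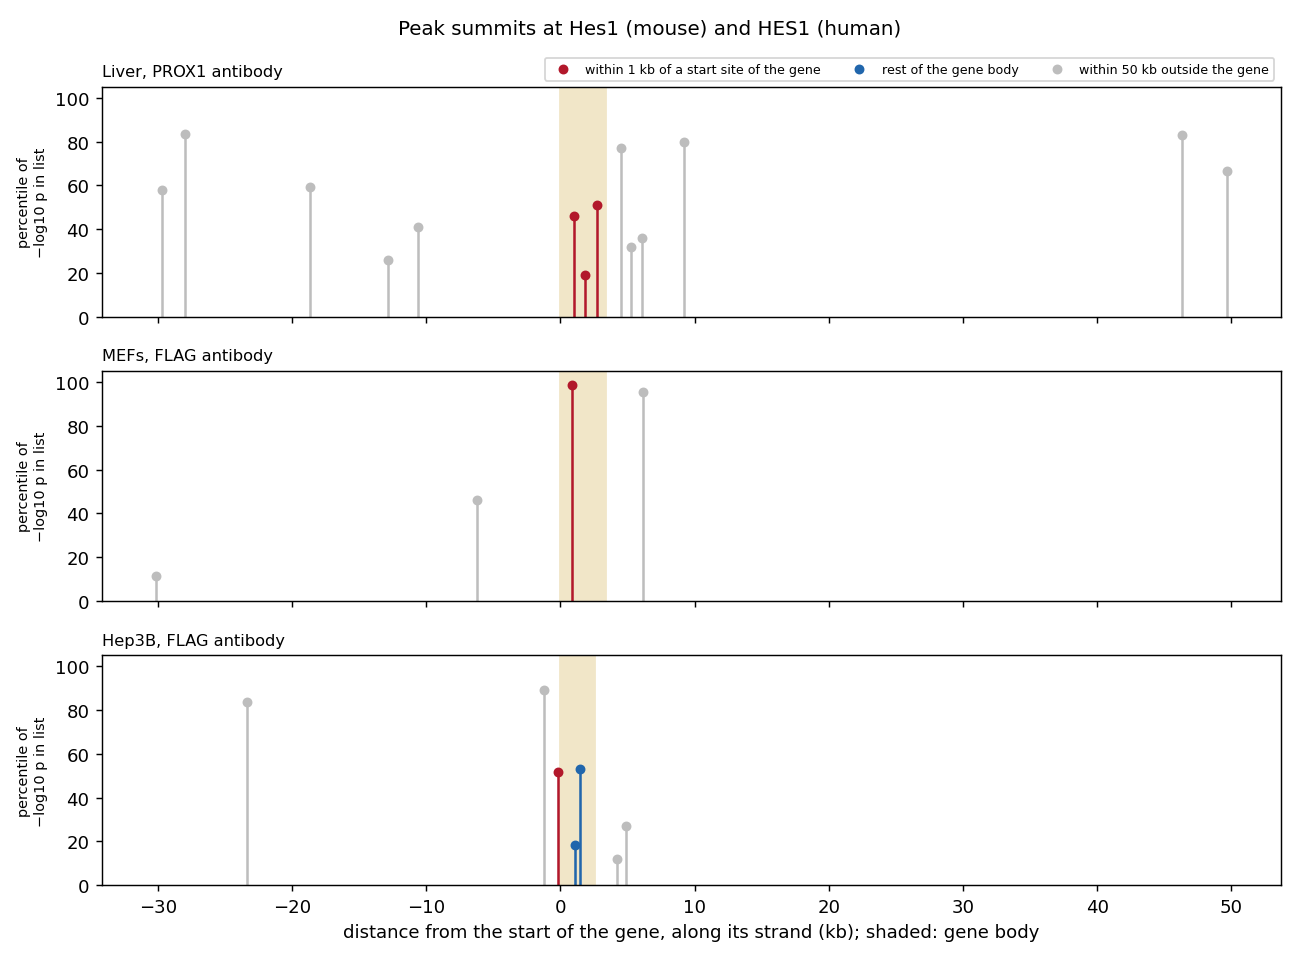
Position of each summit at mouse Hes1 (liver, MEFs) and human HES1 (Hep3B) along the gene (horizontal axis, kb from its start; shaded, gene body) against its percentile of −log10 p within the list (vertical axis). MEFs have a promoter summit at 98.5 and a downstream one at 95.4, Hep3B has 6 summits within 10 kb of a start, and the 14 liver summits spread over the whole region with none above 83.4.

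Hey1, a target and repressor acting with Hes proteins, had 0 summits in liver. In MEFs its promoter summit at 8667095 had a −log10 p of 8.82 and stood at percentile 95.2, with a second summit in the gene at 45.1. In Hep3B the promoter summit stood at percentile 72.2 and was 50 bp upstream of HEY1. The MEF sequence aligned to the human region at 83.2% identity over 292 bases, and the MEF summit matched a position 8 bp from the Hep3B summit. Heyl, the target active in vascular muscle, had weak promoter summits. In MEFs those at 123233804 and 123239596 stood at percentiles 0.871 and 1.98, while its 8 MEF summits had a median of 61.4 and the strongest, 123299254 downstream of the gene, stood at 76.4. Its liver summits reached 30.6 at most, at the start of the neighbour Pabpc4, and its 1 Hep3B summit, 39609688, stood at 2.87, 29955 bp from a start.

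Taking promoters by list, Rbpj and Hes1 had a promoter summit in all 3, Notch1 and Notch2 in liver and MEFs, Jag1 and Hey1 in MEFs and Hep3B, Jag2 and Heyl in MEFs alone, DLL1 in Hep3B alone, and Notch3 in none. No gene had one in liver without having one in MEFs, but only 4 of the 10 had one in liver and 8 had one in MEFs. The share of all protein-coding genes with each of these patterns was not counted, so the patterns have no background here.

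In liver the 7 promoter summits had a median percentile of 31.9, between 10.0 and 50.9, and the 87 other summits a median of 55.3. In MEFs the order was the opposite, with a median of 73.7 for the 12 promoter summits and 45.1 for the others, and in Hep3B the medians were 78.0 for 6 and 27.1 for 13. The whole lists had the same order of promoter and other summits, at medians of 34.7 and 53.0 for liver, 65.5 and 43.7 for MEFs, and 58.7 and 39.1 for Hep3B. The weak promoter summits in liver are therefore a feature that the Notch genes share with the list as a whole. The share of summits at the genes' own promoters came to 7.45% for liver, 17.1% for MEFs and 31.6% for Hep3B, beside 17.0%, 34.5% and 60.5% of all summits of these lists that lay at the promoter of any protein-coding gene. The rise from liver to Hep3B was thus also that of the lists.

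**Figure D4:**
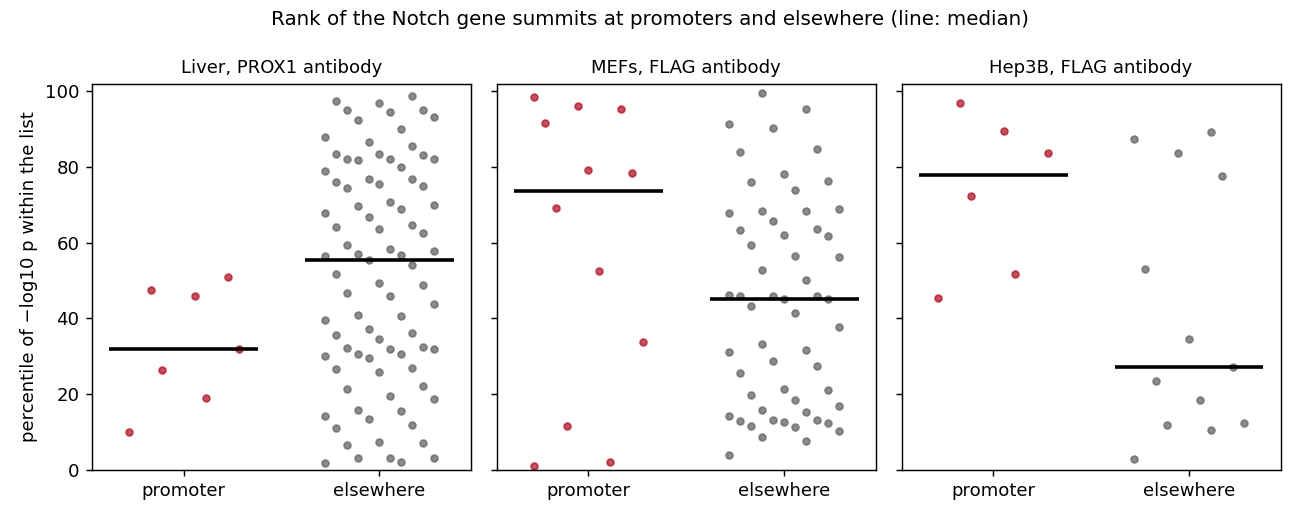
Percentile of −log10 p within the list (vertical axis) for every summit at the 10 Notch genes, split into summits within 1 kb of a start of the gene and summits elsewhere, for liver, MEFs and Hep3B; each point is 1 summit and the line is the median. Promoter points lie at or below 50.9 in liver, while their medians are 73.7 in MEFs and 78.0 in Hep3B, above those of the other summits.

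The summits differed in what lay nearest to them. The nearest start of a protein-coding gene belonged to the Notch gene itself for 65 of 94 liver, 47 of 70 MEF and 17 of 19 Hep3B summits. At 6 liver, 6 MEF and 2 Hep3B summits the start of a neighbour lay within 1 kb, namely Inpp5e, Sec16a and Pabpc4 in liver, the same genes with Nudt14, Btbd6 and Fam120b in MEFs, and SEC16A and ILVBL in Hep3B. Whether these summits belong to the neighbour or to the Notch gene was not tested.

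Of the 94 liver peaks, 25 overlapped a MEF peak, or 26.6%, beside 18.9% of the whole liver list. Of the 70 MEF peaks, 17 overlapped a liver peak, or 24.3%, beside 21.4%. The overlaps lay at Notch2 (8 pairs of peaks), Notch1 (7), Hes1 (6), Heyl (2), Notch3 (1) and Rbpj (1). None lay at the ligands, which held only 9 of the 94 liver peaks. Summits of overlapping peaks were a median of 438 bp apart, and 7 of the 25 pairs were within 100 bp. At Rbpj the shared promoter peak had summits 29 bp apart, and at Hes1 1 wide MEF peak covered the 3 liver promoter peaks.

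The sequence at the summits was searched on both strands over 201 bases. The PROX1 palindrome with up to 1 mismatch occurred at 4 of 94 liver, 1 of 70 MEF and 0 of 19 Hep3B summits, that is 4.26%, 1.43% and 0%, beside 5.24%, 3.97% and 4.57% of all summits. No summit at these genes held it without a mismatch. The matches in liver were at Notch2 (2), Notch1 (1, at a Sec16a start) and Dll1 (1), and the one in MEFs was at Notch3.

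The RBPJ core TGGGAA, the letters RBPJ binds, occurred at 20.2% of the liver, 28.6% of the MEF and 42.1% of the Hep3B summits of the Notch genes, beside 18.7%, 19.1% and 17.0% of all summits. At the genes' promoters it was found at 1 of 7 summits in liver, 8 of 12 in MEFs and 4 of 6 in Hep3B, beside 18.5%, 15.8% and 15.9% of all promoter summits. The MEF summits that held it were those of Hes1, Hey1, Rbpj, Heyl, Notch1 (outermost start) and Jag2 (non-coding start), and those of Hep3B belonged to HES1, HEY1 and RBPJ. This is a count of letters and not of RBPJ binding, and PROX1 was not compared with RBPJ here.

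The half-site AGGTCA of nuclear receptors occurred at 20.2% of the liver, 8.57% of the MEF and 10.5% of the Hep3B summits, beside 26.0%, 11.3% and 9.78%. The CCAAT box occurred at 26.6%, 22.9% and 26.3%, beside 26.7%, 28.1% and 29.4%, and at Hes1 and Hey1 in MEFs and at HES1 in Hep3B there were 3 matches under 1 summit, as there were at the MEF summit 32108952 downstream of Notch3. The bases around promoter summits were richer in CpG than those around other summits in each list. The 201 bases held a median of 16.0, 19.0 and 18.5 CpG at the promoter summits of liver, MEFs and Hep3B, and 2.00, 3.00 and 12.0 elsewhere.

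The other genes of the pathway were described with the same rule, as a list of 45 that included the receptor Notch4, ligands, glycosyltransferases, proteases, coactivators and corepressors. A promoter summit was found at 20 of 45 in liver, 40 in MEFs and 28 in Hep3B, or 44.4%, 88.9% and 62.2%, each above its background of 28.3%, 56.5% and 45.2%. All 45 had at least 1 summit in some list. In 17 genes the promoter summit was present in all 3 lists, and 21 had one in MEFs and not in liver. Maml3, a coactivator, was the single gene with a promoter summit in liver and not in MEFs, and Mfng, Neurl1b and Hes7 had none in any list. How often all protein-coding genes show these patterns was not counted.

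By role, the proteases, among them those that mature the receptor or release its intracellular domain, had a promoter summit at 7 of 8 genes in liver, 8 of 8 in MEFs and 7 of 8 in Hep3B. Receptor regulators had one at 5, 8 and 5 of 8, and corepressors at 3, 4 and 3 of 4. Ligands had 0 of 4 in liver, 3 of 4 in MEFs and 1 of 4 in Hep3B, and the further targets Hes5, Hes7, Hey2 and Nrarp had 0, 3 and 2 of 4. Of all protein-coding genes, 28.3%, 56.5% and 45.2% had a promoter summit in these lists. Roles of 4 genes are too small to be set apart from these shares, and no difference between roles was tested. Genes with a promoter summit in every list were ranked by the lowest of their 3 percentiles. Dtx4, a ubiquitin ligase acting on Notch, led at 48.5, followed by the endocytic inhibitor Numb at 35.9, the corepressors Spen at 27.3 and Cir1 at 23.0, the gamma-secretase subunit Ncstn at 22.0, the ubiquitin ligase subunit Fbxw7 at 21.9, and the presenilin Psen2 at 21.2. Psen2 had the highest promoter percentile of the protease genes in liver, 97.4. Its region held 31 liver summits, but only 5 of them lay in the gene body. Which genes the others lay nearest to, and how many genes have as many summits, was not counted.

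**Figure D5:**
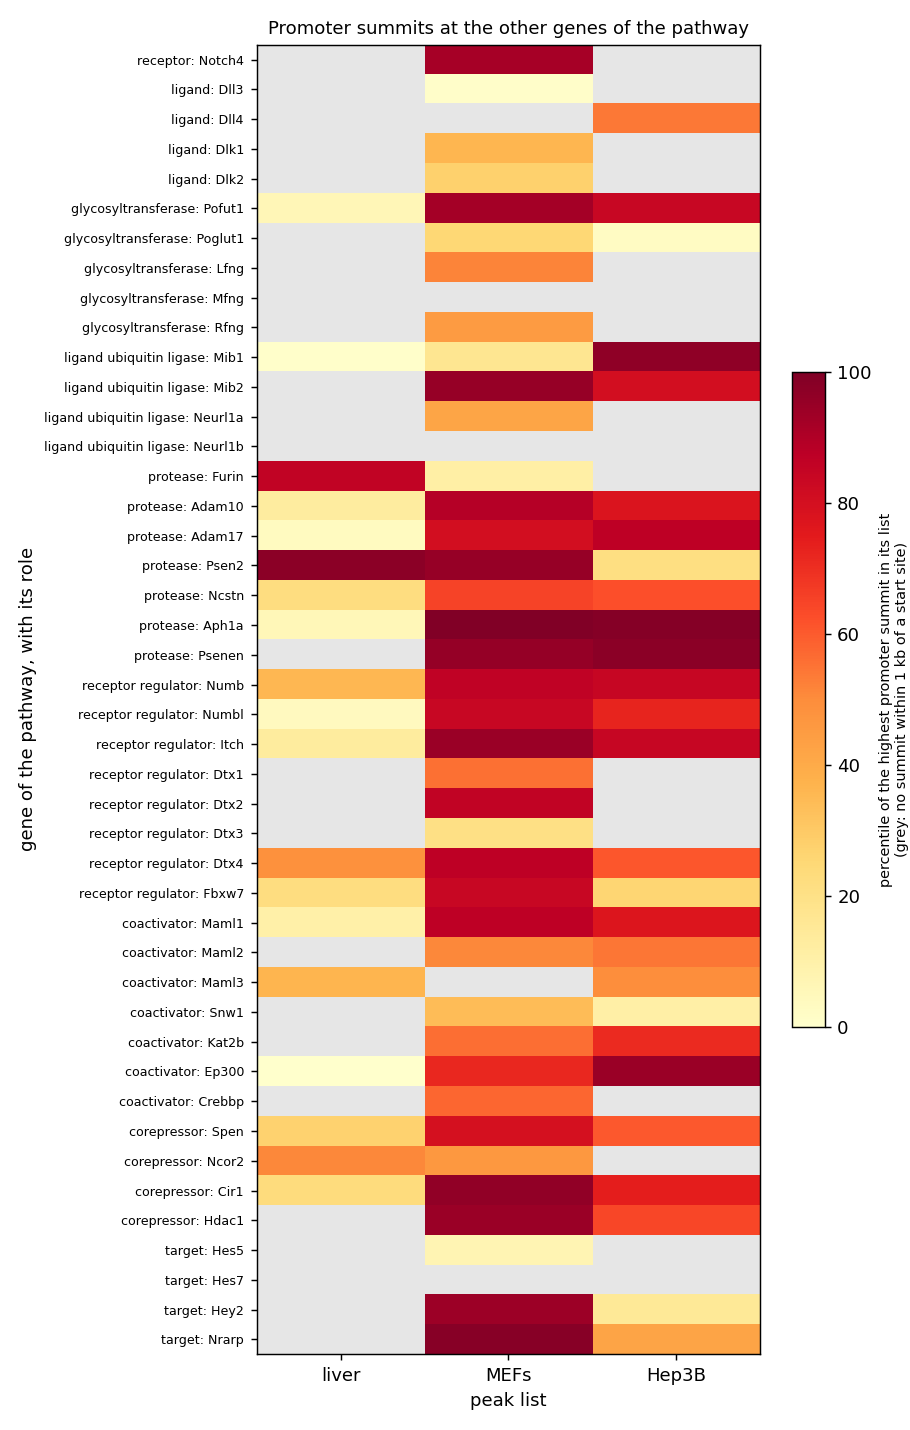
Percentile of −log10 p, within its list, of the strongest promoter summit (colour) at 44 of the 45 further genes of the pathway (vertical axis, grouped by role) in liver, MEFs and Hep3B (horizontal axis); grey marks genes with no summit within 1 kb of a start. Grey cells are most frequent in liver; counted over all 45 genes, 20 have a promoter summit in liver against 40 in MEFs and 28 in Hep3B.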

How the data were processed

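The files are 3 lists of CUT&RUN peaks. The authors trimmed reads with Trim Galore 0.6.6, aligned them with Bowtie2 2.4.2 to mm10 or hg38 and made 1 consensus list per group with Genrich 0.6.1. They present the sites as found in comparison with IgG, but no control library appears in their calling command. The signal that the authors deposited is a peak's area under the curve of significance, and the deposited −log10 p-value and −log10 q-value are those of its summit. None was normalized between lists by the authors.

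Starts, exons and gene bodies came from GENCODE M21 and GENCODE 44, and sequences from the GRCm38 (mm10) and hg38 genomes. Percentiles were computed within a list from the −log10 p-value. All 10 genes were named in every list, with their strongest and all promoter summits; other pathway genes were named by a promoter summit in all lists, in liver and not MEFs, or in none, and 1 of them is not reported here by name. The Hes1, Hey1 and Notch2 intron sequences, the alignments, the peak widths and the high liver count at Psen2 were chosen after their values were seen. The genes, lists and motifs were chosen with earlier results of these data known. Mouse stretches of 301 bases were aligned to human sequence with Biopython 1.88. Motif search, counting and ranking were tested on simulated data. No statistical test was made, since each group has 1 list. The 8 Hep3B peaks outside assembled chromosomes were left out of motif shares.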

Additional observations from a re-analysis of the deposited data

How the results depend on the processing

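The lists pool the samples of a group, so no sample could be left out, and depth per sample is unknown. No paired analysis was possible because no result came from a test on samples. With 10 kb instead of 50 kb on each side, summits at the Notch genes fell to 54 in liver and 43 in MEFs, and in the gene body alone to 43, 34 and, in Hep3B, 6, while the Hep3B genes with a summit fell from 8 to 5 and 3. With an area floor of 500 in every list, MEFs kept 27 summits, and 16 liver and 9 MEF peaks overlapped. With the 14369 top peaks of each list, liver kept 27 summits, 4 genes with a summit and 0 with a promoter summit, MEFs kept 22 summits, and 1 peak of each overlapped. The shares of all protein-coding genes under this cut were not counted. Promoter summits ranked low in the whole liver list (median percentile 34.7, against 53.0 elsewhere), so the 0 is not particular to these genes by this count. Counting summits within 100 bp, 7 liver and 7 MEF peaks were shared. Other settings (a −log10 q of at least 2, promoters of 500 bp or 2 kb, coding starts, 50% overlap, nearest start) moved none of these counts by more than 1.5 times. With the whole peak searched, 15 liver, 15 MEF and 4 Hep3B peaks held the palindrome. A longer stretch holds more such matches by its length alone. The share over all whole peaks of each list was not counted, so these counts have no background.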
